A study of Mus musculus with 6 samples.

Results

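The 9 inflammatory and tissue chemokine receptor genes Ccr2, Ccr3, Ccr4, Ccr6, Ccr8, Ccr10, Cxcr3, Cxcr4 and Cxcr6 were followed in regulatory T cells (Tregs) sorted from mouse spleen. They were taken by symbol from the annotation of the Affymetrix M430v2 array, which gives 13 probe sets to one of these symbols alone, out of 45037 probe sets tested and 18193 genes. All 6 arrays came from female NOD mice, a strain prone to autoimmune diabetes, and every mouse carried both the BDC2.5 T cell receptor transgene, specific for an islet antigen, and the Foxp3GFP reporter. Treated mice were RAG1o/o and had received 37.5 µg of the anti-CD3 antibody KT3 intravenously on each of 5 days from an age of 17 days. They were sampled at 28 or 29 days of age, which the labels give as 11 or 12 days after treatment. That number equals the days since the first injection. Untreated mice were RAG1+/o and also 28 or 29 days old. RAG1 is needed to assemble antigen receptor genes, so RAG1o/o mice make no B cells and their T cells carry the transgenic receptor alone. Each group had 3 arrays with 1 mouse per array. Antibody and RAG1 genotype differed together and cannot be told apart. Cells had been gated as CD4+ GFP+ and as lacking B220, CD8a and CD11b/c.

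Chemokine receptors are G protein-coupled receptors that steer leukocytes along gradients of chemokines, mainly through Gi proteins, and are then silenced by receptor kinases and arrestins. Receptors of this set lead effector and tissue Tregs into inflamed tissue, skin, lung, gut or tumours, in contrast to Ccr7, which leads lymphocytes into lymph nodes. Cxcr3 binds Cxcl9, Cxcl10 and Cxcl11 and is induced by the transcription factor T-bet, Ccr6 binds Ccl20 and is shared with Th17 cells and B cells, and Ccr4 and Ccr8 mark skin-homing and tissue Tregs.

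Values are log2 RMA intensities, and differences are treated minus untreated on that log2 scale. The array medians of the linear intensities ran from 85.3 to 92.4. Transcripts of T cells and Tregs were bright on all arrays: Foxp3, which defines Tregs, measured 11.43, 11.46 and 12.44 in treated mice and 10.75, 9.95 and 11.07 in untreated mice. Genes of cells that the gate should have removed were also bright, those of neutrophils and monocytes on all arrays but untreated replicate 3 and those of B cells on untreated replicates 1 and 2. The mean of 17 B cell genes was 6.74, 6.57 and 6.59 in treated mice and 9.81, 9.84 and 7.05 in untreated mice. The mean of 9 neutrophil genes was 11.45, 10.11 and 11.13 in treated mice and 11.04, 10.68 and 6.72 in untreated mice. The mean of 13 monocyte and macrophage genes was 8.68, 7.63 and 8.59 in treated mice and 8.09, 8.47 and 6.51 in untreated mice. Untreated replicate 3 was the lowest array for 11 of the 13 monocyte and macrophage genes and for 7 of the 9 neutrophil genes. The means of 10 NK cell genes ran from 7.72 to 8.04 in treated mice and from 7.12 to 8.39 in untreated mice, those of 8 dendritic cell genes from 7.11 to 7.50 in treated mice and from 6.97 to 7.70 in untreated mice, and those of 10 genes of eosinophils, basophils and mast cells from 5.46 to 5.79 in treated mice and from 5.50 to 6.18 in untreated mice. The lowest untreated mean of each of these lists came from untreated replicate 3, which was the lowest array for 7 of the 10 NK cell genes. Untreated replicate 3 therefore stood apart from the other untreated arrays, and results are given with and without it. In these bulk samples fewer cells of a type and less RNA per cell cannot be told apart.

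**Figure D1:**
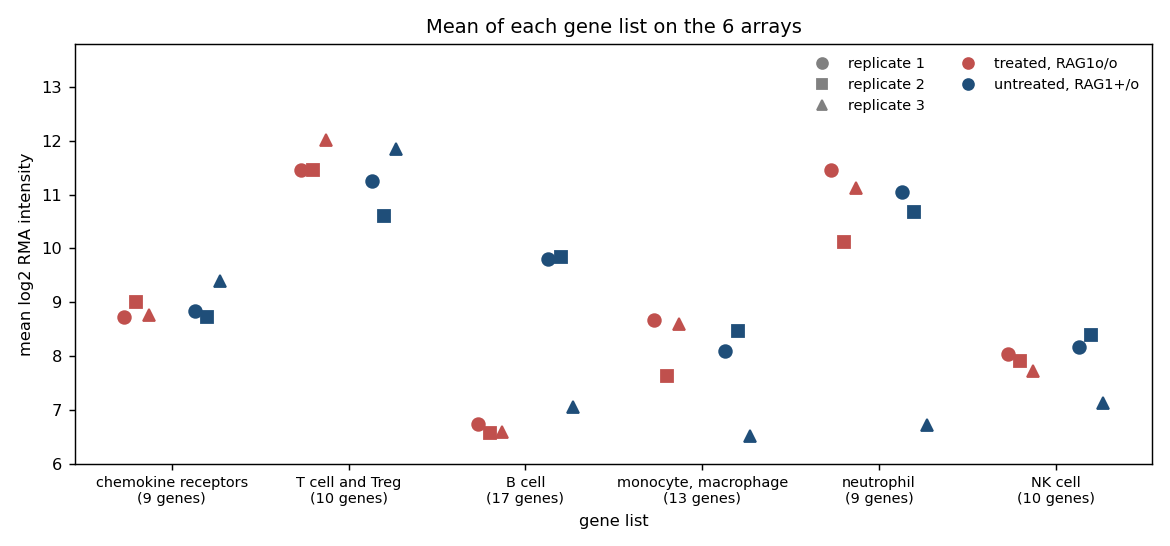
Mean log2 RMA intensity (y axis) of each gene list (x axis) on each array, treated to the left (red) and untreated to the right (blue), with the symbol giving the replicate number. Untreated replicate 3 has the highest mean of the 9 chemokine receptors, 9.40, and the lowest means of the monocyte and macrophage list, 6.51, and of the neutrophil list, 6.72. The level of one list is not comparable with that of another.

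No receptor probe set passed the test between the groups. In limma fitted over all 45037 probe sets, 0 of the 13 receptor probe sets reached an adjusted p of 0.05 in either direction, and the background was 0% higher and 0% lower. Adjusted p values of the 13 ran from 0.961 to 0.998. At an unadjusted p under 0.05 there was 1 receptor probe set higher in treated mice, where 1.53% of all probe sets were, and 2 were lower, where 3% of all were. The 3 arrays of each group did not overlap in 4 of the 13. Treated arrays all lay above untreated arrays for Ccr8 and for one probe set of Cxcr6, against 5.14% of all probe sets. They all lay below for Ccr3 and Ccr6, against 5.02% of all probe sets. Without treated replicate 3 the count of receptor probe sets with all treated arrays below became 4, through 2 probe sets of Ccr2, where 8.64% of all probe sets did so. Over the 13 probe sets the median difference was −0.05, with 6 above 0 and 7 below. Over all probe sets the median difference was +0.05.

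**Figure D2:**
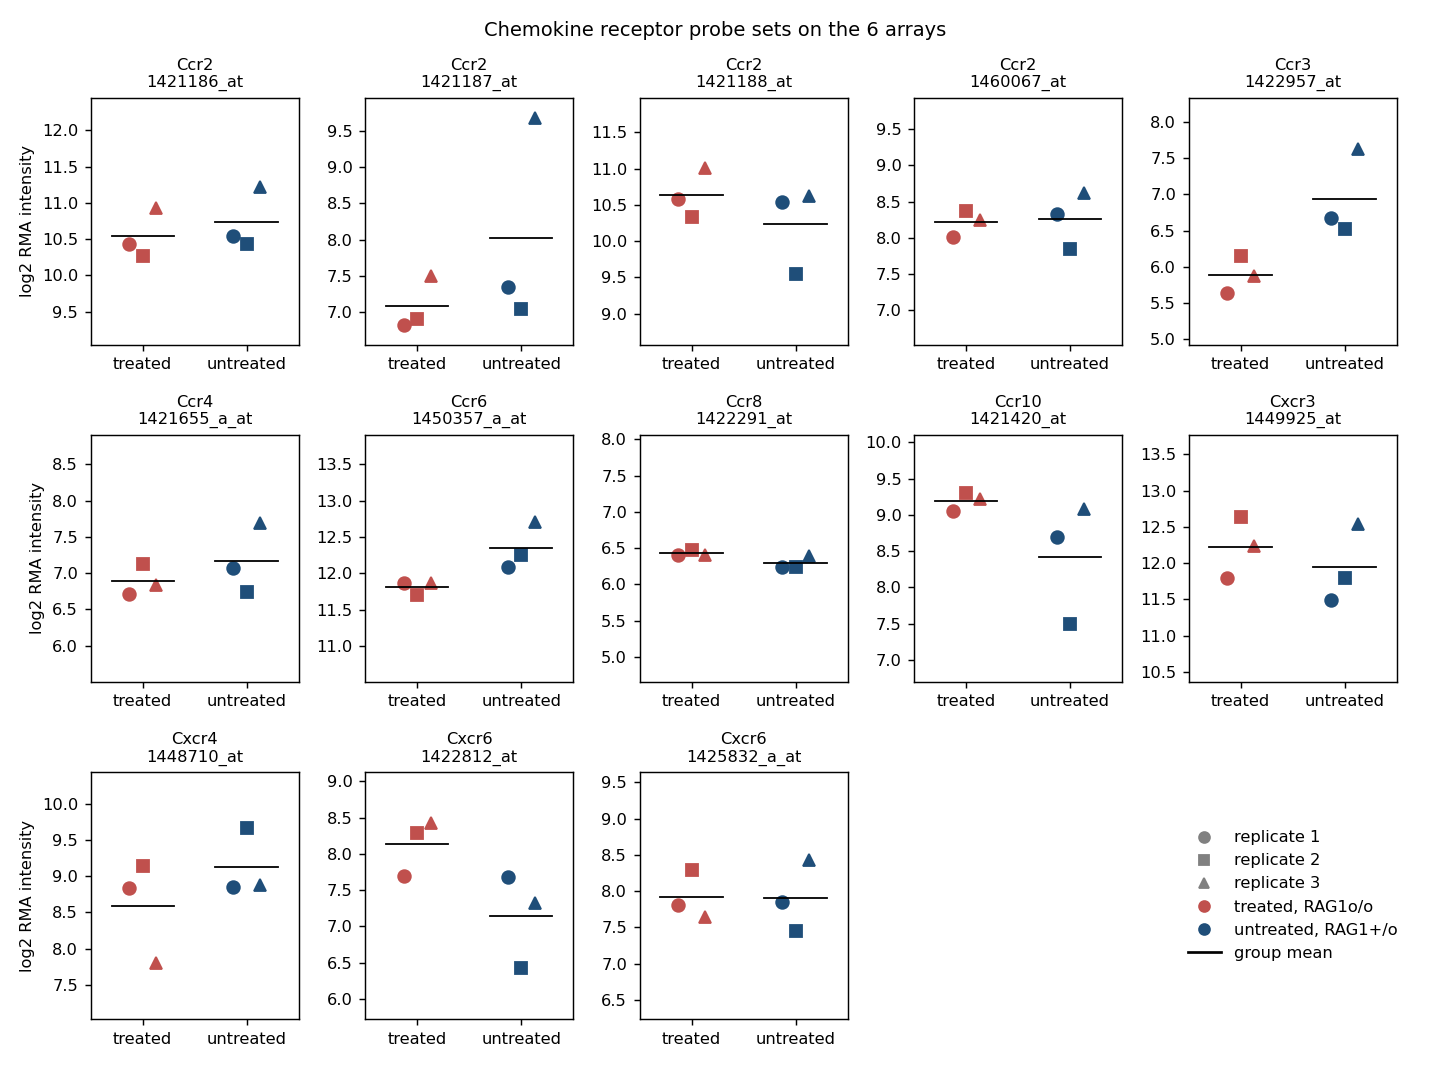
Log2 RMA intensity (y axes, all spanning the same log2 range) of the 13 receptor probe sets in treated (left, red) and untreated (right, blue) mice, with 1 symbol per mouse and a line at each group's mean. The groups do not overlap for Ccr3, Ccr6, Ccr8 and Cxcr6 1422812_at, and untreated replicate 3 lies far above the other arrays for Ccr2 1421187_at at 9.68.

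Ccr3, the receptor for eotaxins such as Ccl11 and Ccl24 on eosinophils and some type 2 helper cells, had the largest fold among the 13 receptor probe sets. Its only probe set, 1422957_at, measured 5.64, 6.15 and 5.88 in treated mice and 6.68, 6.53 and 7.62 in untreated mice. All treated arrays lay below all untreated arrays, and the highest value came from untreated replicate 3. The mean was 5.89 ± 0.26 in treated and 6.94 ± 0.59 in untreated mice (SD, n = 3 each). This is a 2.07-fold lower level in treated mice, a difference of −1.05 (95% interval −1.79 to −0.32), which did not pass (limma adjusted p = 0.961). Without untreated replicate 3 the difference was −0.71. The probe set is dim, with a mean of 6.42 over the 6 arrays, and the deposited table holds no detection calls. Over the 10 genes of eosinophils, basophils and mast cells the array means were 5.59, 5.79 and 5.46 in treated mice and 5.86, 6.18 and 5.50 in untreated mice, and 8 of the 10 genes had a mean under 7. Untreated replicate 3, where Ccr3 was highest, was the highest array for 1 of the 10, the eosinophil granule gene Prg3, and the lowest for 1, Siglecf. Prg3 lay outside the naming rule and was named for that array. It measured 5.57, 5.97 and 5.63 in treated mice and 5.85, 5.72 and 6.03 in untreated mice. Mcpt8, with the smallest p of the 10, measured 6.45, 6.96 and 6.13 in treated mice and 8.32, 9.15 and 6.17 in untreated mice. Siglecf differed by +0.52. Of the 10 genes, 2 had a difference above 0 and 8 below. What part transcripts of eosinophils, basophils or mast cells had in the Ccr3 difference was not tested.

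Ccr6 differed by less than Ccr3, with a smaller SD in each group. Its probe set 1450357_a_at measured 11.86, 11.70 and 11.87 in treated mice and 12.09, 12.25 and 12.71 in untreated mice. Again all treated values were below all untreated values. The mean was 11.81 ± 0.10 in treated and 12.35 ± 0.32 in untreated mice (SD, n = 3 each). The level was 1.45-fold lower in treated mice, with a difference of −0.54 (95% interval −1.01 to −0.06, limma adjusted p = 0.961). Without untreated replicate 3 it was −0.36. B cells also express Ccr6, and B cell genes were much higher in untreated replicates 1 and 2 than in treated mice. The highest Ccr6 value was on untreated replicate 3. Its B cell mean of 7.05 was the lowest among untreated mice and above the 6.74, 6.57 and 6.59 of treated mice. There the B cell gene Ms4a1, which encodes CD20, was at 8.97. It was at 12.95 and 12.93 in untreated replicates 1 and 2, and at 6.50, 6.66 and 6.30 in treated mice. What part B cell transcripts had in the Ccr6 difference was not tested.

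Cxcr6, the receptor for the membrane-bound chemokine Cxcl16 found on tissue-resident and cytotoxic T cells, had an unadjusted p under 0.05 on 1 of its 2 probe sets. Probe set 1422812_at measured 7.70, 8.28 and 8.42 in treated mice and 7.68, 6.42 and 7.33 in untreated mice. The groups did not overlap, but the lowest treated and the highest untreated value, both from replicate 1, were almost equal. The mean was 8.14 ± 0.38 in treated and 7.14 ± 0.65 in untreated mice (SD, n = 3 each). Its difference was +0.99 (95% interval 0.16 to 1.83), a 1.99-fold higher level in treated mice that did not pass (limma adjusted p = 0.961). It was +1.09 without untreated replicate 3 and +0.63 without untreated replicate 2, whose value was the lowest. Probe set 1425832_a_at measured 7.80, 8.29 and 7.65 in treated mice and 7.84, 7.45 and 8.43 in untreated mice. Its groups overlapped fully, and its difference was +0.005 (95% interval −0.69 to 0.70). Untreated replicate 3 was the highest array on 1425832_a_at and lay below all treated arrays on 1422812_at.

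The promoters of Ccr3, Ccr6 and Cxcr6 are shown because these are the receptors whose unadjusted p was under 0.05. The sequences are RefSeq's on mouse build GRCm38.p6, each 300 bases long from 250 before to 50 after an annotated start and all on the + strand. Of the 9 receptor genes, 8 matched a promoter there. Ccr3 was taken at chr9:124021721-124022020, Cxcr6 at chr9:123806227-123806526, and Ccr6 at both of its listed starts, chr17:8235793-8236092 and chr17:8242276-8242575. Capitals mark matches on either strand to AGGTCA (bound by ROR receptors), TTCNNNGAA (STAT factors), TCACAC (T-box core), TGTTTAC (FOXO core) or TTTCC (NFAT core).
Ccr3: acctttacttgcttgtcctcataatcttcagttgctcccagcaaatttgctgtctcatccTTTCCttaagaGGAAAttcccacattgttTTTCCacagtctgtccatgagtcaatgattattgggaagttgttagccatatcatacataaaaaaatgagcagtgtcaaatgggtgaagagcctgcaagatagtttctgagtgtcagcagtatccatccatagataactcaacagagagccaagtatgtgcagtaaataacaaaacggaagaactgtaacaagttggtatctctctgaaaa
Ccr6, first start: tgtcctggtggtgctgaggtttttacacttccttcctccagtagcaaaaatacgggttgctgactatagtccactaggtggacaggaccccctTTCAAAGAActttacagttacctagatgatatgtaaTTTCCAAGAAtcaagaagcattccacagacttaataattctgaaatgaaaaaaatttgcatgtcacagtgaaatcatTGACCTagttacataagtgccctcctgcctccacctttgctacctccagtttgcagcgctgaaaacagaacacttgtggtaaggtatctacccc
Ccr6, second start: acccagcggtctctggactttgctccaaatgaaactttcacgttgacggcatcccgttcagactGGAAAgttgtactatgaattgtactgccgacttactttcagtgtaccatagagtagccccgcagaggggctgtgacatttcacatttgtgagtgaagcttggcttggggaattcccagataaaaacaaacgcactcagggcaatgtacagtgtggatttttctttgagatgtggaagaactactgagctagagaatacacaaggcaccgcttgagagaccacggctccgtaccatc
Cxcr6: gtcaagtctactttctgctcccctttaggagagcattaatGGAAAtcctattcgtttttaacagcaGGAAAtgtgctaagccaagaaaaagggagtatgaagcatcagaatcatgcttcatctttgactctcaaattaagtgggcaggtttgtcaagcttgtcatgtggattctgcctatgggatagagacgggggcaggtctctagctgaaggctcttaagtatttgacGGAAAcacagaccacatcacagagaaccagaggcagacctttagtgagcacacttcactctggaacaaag

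The first Ccr6 window held 1 AGGTCA match, present in 16.3% of all 32851 promoter windows, and 2 TTCNNNGAA matches, present in 8.3% of windows, one of which overlapped a TTTCC match. The windows of Ccr3 and Cxcr6 held neither. TTTCC occurred 3 times in the Ccr3 window, 3 times in the Cxcr6 window and 1 time in each Ccr6 window, and 61.3% of all windows hold it. TCACAC, found in 14.5% of windows, and TGTTTAC, found in 3.65%, had no match in any of the 4. These matches describe letters only.

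Ccr10, a skin and mucosal receptor for Ccl27a and Ccl28, measured 9.05, 9.30 and 9.22 in treated mice and 8.69, 7.50 and 9.08 in untreated mice on its probe set 1421420_at. The groups overlapped by one pair of arrays, since untreated replicate 3 lay just above treated replicate 1. Treated mice varied little, 9.19 ± 0.13, against 8.43 ± 0.82 in untreated mice (SD, n = 3 each), because untreated replicate 2 lay far below the other arrays. The difference was +0.76 (95% interval −0.15 to 1.67, limma adjusted p = 0.961). It was +0.30 without untreated replicate 2 and +1.09 without untreated replicate 3, so single untreated mice set its size.

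Ccr2, the receptor for Ccl2 that releases monocytes from bone marrow and also serves effector T cells and Tregs, has 4 probe sets, which did not give one direction. Probe set 1421186_at measured 10.43, 10.27 and 10.92 in treated mice and 10.54, 10.44 and 11.22 in untreated mice, a difference of −0.19 (95% interval −0.83 to 0.45). Probe set 1421188_at measured 10.59, 10.34 and 11.01 in treated mice and 10.55, 9.54 and 10.62 in untreated mice, a difference of +0.41 (95% interval −0.37 to 1.18) that was +0.061 without untreated replicate 2, its lowest array, and +0.23 without treated replicate 3, its highest. On 1421186_at the highest value of each group came from replicate 3, and without untreated replicate 3 its difference turned to +0.054. Probe set 1460067_at measured 8.02, 8.38 and 8.25 in treated mice and 8.33, 7.84 and 8.61 in untreated mice, a difference of −0.05 (95% interval −0.60 to 0.50) that turned to +0.13 without untreated replicate 3.

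The remaining Ccr2 probe set, 1421187_at, measured 6.83, 6.91 and 7.50 in treated mice and 7.35, 7.05 and 9.68 in untreated mice. Untreated replicate 3 was more than 2 log2 units above every other array. The difference of −0.94 (95% interval −2.49 to 0.60) was −0.12 without that array. Its annotation cites the same sequence record as 1421186_at and 1421188_at, on which the same mouse lay 0.73 and 0.57 above the mean of the other untreated mice, against 2.48 here. Monocyte and macrophage genes had their lowest mean, 6.51, on untreated replicate 3, the highest array for 3 of the 4 Ccr2 probe sets, with the monocyte receptor gene Csf1r at 8.27 there and between 11.18 and 12.66 elsewhere. Csf1r was picked as a known marker. What part monocyte transcripts had in the Ccr2 levels was not tested.

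Cxcr3 was bright in both groups. It measured 11.80, 12.64 and 12.24 in treated mice and 11.49, 11.80 and 12.54 in untreated mice. The groups overlapped, and the difference was +0.28 (95% interval −0.49 to 1.05, limma adjusted p = 0.961). Without untreated replicate 3 it was +0.58, without treated replicate 2 it was +0.071, and without untreated replicate 1 it was +0.052. Tbx21, which encodes T-bet, measured 7.67, 7.17 and 7.53 in treated mice and 7.25, 7.35 and 6.18 in untreated mice. Tbx21 lay outside the naming rule and was chosen for its known tie to Cxcr3. What part T-bet had in the Cxcr3 levels was not tested.

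Cxcr4, which holds cells in bone marrow and other sites rich in Cxcl12, measured 8.84, 9.14 and 7.81 in treated mice and 8.85, 9.66 and 8.88 in untreated mice. Treated replicate 3 was the lowest array by about 1 log2 unit, and the other arrays of the 2 groups were interleaved. The difference was −0.54 (95% interval −1.45 to 0.38), and it was −0.14 without treated replicate 3 and −0.27 without untreated replicate 2.

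Ccr8 and Ccr4 differed least in fold among the receptors with a single probe set, closely followed by Cxcr3. Both were dim, with means of 6.36 and 7.03 over the 6 arrays. The skin and mucosal receptor gene Ccr10 differed by more, +0.76. Ccr4, the receptor for Ccl17 and Ccl22, measured 6.72, 7.13 and 6.84 in treated mice and 7.07, 6.74 and 7.69 in untreated mice, a difference of −0.27 (95% interval −0.90 to 0.36). Leaving out untreated replicate 3, its highest array, brought the difference to −0.0096. Ccr8, the receptor for Ccl1, measured 6.41, 6.48 and 6.40 in treated mice and 6.24, 6.24 and 6.40 in untreated mice. Its groups did not overlap, but the gap was 0.0048 and the 6 arrays spanned 0.24 in all. Its difference was +0.14 (95% interval −0.21 to 0.48). Ccr8 and Ccr3 were the members with a mean under 7 over the 6 arrays, 6.36 and 6.42.

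**Figure D3:**
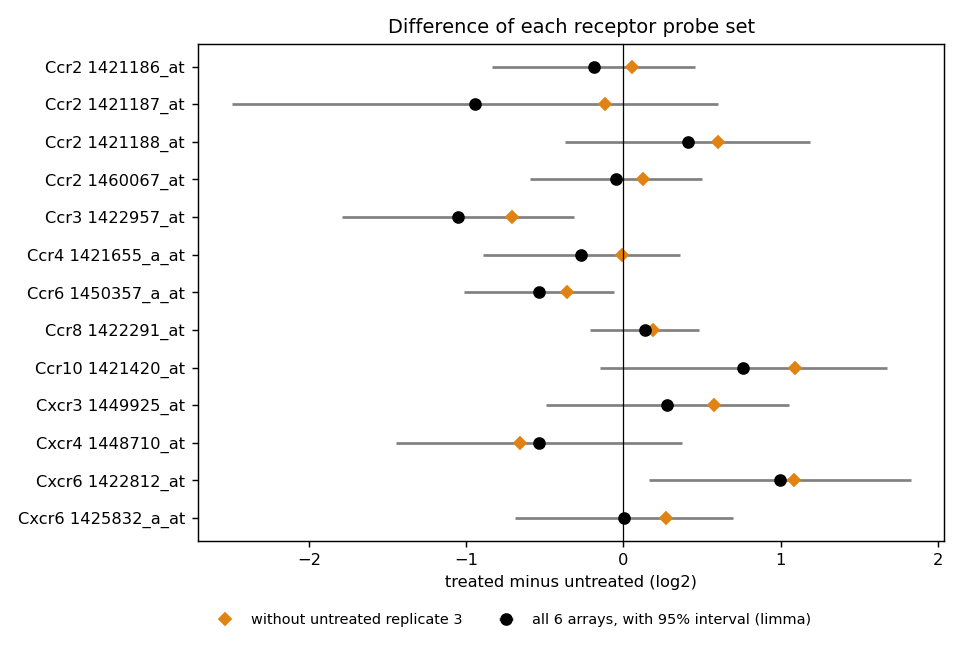
Difference of each receptor probe set, treated minus untreated (x axis, log2), from limma over all 6 arrays (black point) with its 95% interval (grey bar) and the difference without untreated replicate 3 (orange). Intervals of Ccr3, Ccr6 and Cxcr6 1422812_at leave out 0 before adjustment, and the orange point lies to the right of the black one for all probe sets but Cxcr4.

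The receptors also varied between mice of one group. Untreated replicate 3 had the highest value of the 6 arrays in 7 of the 13 receptor probe sets, and in 13.5% of all probe sets. The 13 include several probe sets of Ccr2 and Cxcr6. With only the brightest probe set of each gene, untreated replicate 3 was highest in 5 of 9. It lay above the mean of untreated replicates 1 and 2 in 12 of 13, the exception being Cxcr4, and 57.5% of all probe sets did so. The median of that gap was +0.73 for the receptors and +0.05 for all probe sets. In the opposite direction, untreated replicate 2 had the lowest value in 6 of the 13, against 18.2% of all probe sets. Treated replicate 2 had the highest value in 3 of the 13, against 37.4% of all probe sets. The 10 T cell and Treg genes had means of 11.45, 11.47 and 12.02 in treated mice and 11.25, 10.60 and 11.84 in untreated mice, so among untreated mice they were highest in replicate 3 and lowest in replicate 2 as well. What part the other cells' transcripts had in these gaps was not tested.

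**Figure D4:**
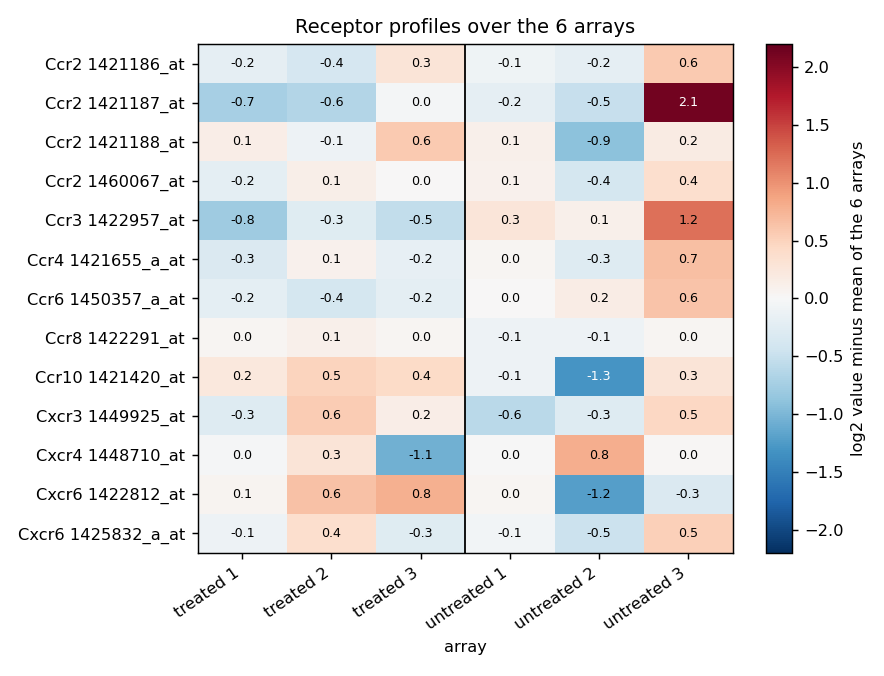
Each receptor probe set (rows) on each array (columns, treated left of the line and untreated right), as the log2 value minus the mean of the 6 arrays. The column of untreated replicate 3 is at or above the mean for all receptor probe sets but Cxcr6 1422812_at, and stands out for Ccr2 1421187_at.

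The array file numbers in the labels fall into 2 runs of numbers, which may or may not mark a batch, with replicates 1 and 2 of both groups in the first and replicate 3 of both groups in the second. Within the first run the difference was −0.71 for Ccr3, −0.39 for Ccr6, +0.94 for Cxcr6 1422812_at and +1.08 for Ccr10. Within the second run, which has 1 mouse per group, it was −1.74 for Ccr3, −0.84 for Ccr6, +1.10 for Cxcr6 1422812_at and +0.14 for Ccr10. Each of these 4 probe sets thus had the same direction in both runs. The direction turned for 4 others. It was +0.57 in the first run and −0.30 in the second for Cxcr3, and +0.40 and −0.79, in that order, for the other Cxcr6 probe set, 1425832_a_at. It was +0.017 and −0.84 for Ccr4 and +0.11 and −0.36 for Ccr2 1460067_at.

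Several members lie together in the genome. In the RefSeq gene order of GRCm38.p6, Ccr3 and Ccr2 are neighbouring protein-coding genes on chromosome 9, and Cxcr6 lies a few genes away between Fyco1 and Xcr1. Ccr4 and Ccr8 are on the same chromosome, farther away. The 2 neighbours did not share a direction on all probe sets: Ccr3 differed by −1.05, while the 4 Ccr2 probe sets ran from −0.94 to +0.41.

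For the 5 members whose brightest probe set ranged over at least 1 log2 unit, the genes with the nearest profile were sought among 15208 other probe sets, by the root-mean-square distance between profiles over the 6 arrays. Nearest to Ccr6 were Hcfc2, at a distance of 0.0422, and Rora, a nuclear receptor gene, at 0.0514. Rora measured 10.85, 10.75 and 10.82 in treated mice and 10.99, 11.17 and 11.70 in untreated mice, with the same highest array as Ccr6. Nearest to Ccr3 were Tpm3 at 0.197 and Got1 at 0.223, and both were also highest on untreated replicate 3. Nearest to Ccr10 were Mien1 at 0.0720 and Pycard at 0.117, both lowest, as Ccr10 was, on untreated replicate 2. Nearest to Cxcr3 were Ky at 0.115 and Tmc8 at 0.128. Nearest to Cxcr4 were Dcun1d5 at 0.0800 and Rbm8a at 0.101, both lowest on treated replicate 3. These distances are a description over 6 arrays and were not tested.

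Among 12 other chemokine receptor genes measured, of 14 listed, limma called 0 in either direction, with 0 higher and 1 lower at an unadjusted p under 0.05. Over all probe sets, 1.53% were higher and 3% lower at that threshold. Those shares count every probe set, while the lists here and below count 1 probe set per gene. Ccr7 had the smallest p, with 5.56, 6.24 and 6.18 in treated mice and 8.0, 8.18 and 7.95 in untreated mice, a difference of −2.05 (95% interval −2.57 to −1.53, limma adjusted p = 0.227 over all probe sets). The 13 probe sets of the 9 receptors ran from −1.05 to +0.99. B cells and resting T cells also carry Ccr7, and B cell genes were higher in untreated than in treated mice, most of all in untreated replicates 1 and 2. What part B cell transcripts had in the Ccr7 difference was not tested. Cxcr5, which leads B cells and follicular T cells into follicles, differed by −1.08, with 5.97, 5.64 and 7.22 in treated mice and 7.74, 7.75 and 6.57 in untreated mice, in which untreated replicate 3 was lowest. The gut receptor gene Ccr9 differed by −0.82 and the neutrophil receptor gene Cxcr2 by +0.20. The median over the 12 was −0.18.

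The ligands of the 9 receptors were mostly dim in these sorted cells, 13 of 18 having a mean under 7, and limma called 0 in either direction (0 at an unadjusted p under 0.05). Their median difference was −0.01. Ccl5, made by activated T cells and NK cells, was bright, with 11.26, 11.37 and 10.42 in treated mice and 10.78, 10.52 and 9.79 in untreated mice, a difference of +0.65 (95% interval −0.16 to 1.46). The eotaxin gene Ccl24 differed by +0.32, Ccl27a by −0.45 and Cxcl12 by −0.16.

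Of 17 genes that transmit or end the receptor signal, limma called 0. At an unadjusted p under 0.05, 2 were higher and 1 lower, where 1.53% and 3% of all probe sets were. In all, 13 had a difference above 0, as had 10645 of all 18193 genes, and the median was +0.28, against +0.05 over all genes. The receptor kinase gene Grk6 measured 11.81, 11.94 and 12.14 in treated mice and 11.66, 11.35 and 11.45 in untreated mice, a difference of +0.48 (95% interval 0.07 to 0.88, limma adjusted p = 0.961). The arrestin gene Arrb2 measured 10.10, 10.70 and 9.83 in treated mice and 9.57, 9.55 and 9.67 in untreated mice, a difference of +0.61 (95% interval 0.05 to 1.18). For both, all treated arrays lay above all untreated ones. Arrb1, the other beta-arrestin gene, differed by +0.52, while the G protein gamma subunit gene Gng2 differed by −0.91 (95% interval −1.59 to −0.23).

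In the 21 measured genes of the migration machinery the median difference was −0.08 and limma called 0. At an unadjusted p under 0.05, 1 was higher and 1 lower, where 1.53% and 3% of all probe sets were. Plcb3, a phospholipase activated by G proteins, differed by +0.62, the GTPase gene Rac1 by −0.77, its exchange factor gene Tiam1 by −1.13 and the integrin gene Itga4 by −0.51. Among 13 transcription factor genes tied to these receptors limma called 0, and their median difference was +0.10. At an unadjusted p under 0.05, 0 were higher and 1 lower, against the same shares of all probe sets. Ahr, the aryl hydrocarbon receptor gene, measured 11.08, 10.59 and 11.15 in treated mice and 11.76, 11.39 and 12.32 in untreated mice, a difference of −0.88 (95% interval −1.54 to −0.22, limma adjusted p = 0.961). Its highest array was untreated replicate 3, as for Ccr3 and Ccr6. Rora differed by −0.48, Irf4 by −0.42 and Stat6 by +0.71.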

How the data were processed

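Expression was measured on 6 Affymetrix M430v2 arrays. Per the labels' protocols, RNA was taken up in Trizol and amplified in 2 rounds before biotin labelling, which can strengthen 3′ bias. The authors normalized the arrays with RMA in GenePattern, per the series' design text, which names no version. The table deposited holds linear intensity, and each value was turned to log2 with no further scaling. RMA brings the arrays' distributions together, so a change common to most transcripts would not be seen.

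Of 45101 probe sets, 64 controls were left out. Symbols came from the platform annotation (34945 probe sets with 1 symbol, 932 with several, 9160 with none) and were updated by gene identifier for 34741. Each probe set was tested on its own by limma (version 3.58.1, under R 4.3.3; functions lmFit and eBayes) across all 45037, with Benjamini-Hochberg adjustment over all of them and a threshold of 0.05. Levels are mean ± SD, and intervals are 95%. The fit was checked only on simulated data with independent normal noise and no outlying array, so that check does not bear on the results for these mice. Each array held 1 mouse, so limma weighed each difference against the spread between arrays of different mice, moderated over all probe sets. The number of arrays limits precision. An exact permutation test of 3 against 3 cannot give a two-sided p below 0.1, a floor that does not apply to limma. For gene lists each gene is its probe set of highest mean, and up to 4 genes per list with the smallest p were named. Up to 2 genes of nearest profile were named for members ranging over at least 1 log2 unit, among probe sets with a mean of at least 7. Other lists gave markers of NK, dendritic, eosinophil and mast cells. Members and lists were chosen with earlier results of these data known. Plots used Python 3.11.15 and its library matplotlib 3.10.9.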

Additional observations from a re-analysis of the deposited data

How the results depend on the processing

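Alternatives covered a replicate block, array file number run, age, quantile normalization, median centring, a minimum mean of 7, eBayes with trend and robust, array weights, 1 probe set or the mean per gene, linear means, an adjusted p of 0.1, each array left out, and replicates 1 and 2 only, the last chosen after seeing the data. In all of these with a test, 0 receptor probe sets passed. Over all probe sets the counts stayed at 0 higher and 0 lower, except 1 higher and 4 lower with array weights, 1 higher and 33 lower with replicates 1 and 2 only, and, over the arrays left out in turn, 0 to 2 higher and 0 to 57 lower, the upper ends without untreated replicate 3. With the replicate block the counts were again 0 and 0, and Ccr3 differed by −1.05 (limma adjusted p = 0.733). Same-numbered samples had deviations from their group means that correlated at 0.451, 0.0826 and 0.0882, and not every sample correlated best with its own number, so the numbers were not taken as pairs. Over the arrays left out, 2 to 3 of the 13 receptor probe sets had all treated arrays above, against 7.7% to 12.3% of all probe sets. All treated arrays lay below in 2 to 4 of the 13, against 7.51% to 12% of all probe sets. Differences of Ccr3, Ccr6, Ccr8, Ccr10, Cxcr3, Cxcr4, Cxcr6 1422812_at, Ccr2 1421187_at and Ccr2 1421188_at kept their sign under every alternative that gave a value. Ccr3 ran from −1.26 to −0.71, Ccr6 from −0.67 to −0.36 and Cxcr6 1422812_at from +0.56 to +1.26. Cxcr6 1425832_a_at turned to −0.046 with age, −0.019 with median centring, −0.073 with array weights and −0.026 with linear means, and ran from −0.23 to +0.27 over the arrays left out. Over the same arrays Ccr2 1421186_at ran from −0.38 to +0.054 and Ccr2 1460067_at from −0.26 to +0.13. With replicates 1 and 2 only, Ccr2 1460067_at was at +0.11 and Ccr4 at +0.017. The causes of these turns were not tested. The minimum mean of 7 removed Ccr3 and Ccr8, so no value was given for them there.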
